A study of Mus musculus with 8 samples.

Results

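The genes described here encode the Zfp36 family of mRNA decay factors, the mRNA-stabilising protein Elavl1 and subunits of the CCR4-NOT deadenylase. They are 10 of the 18631 genes listed in each library, found by matching the Entrez gene ID to the symbols Zfp36, Zfp36l1, Zfp36l2, Elavl1, Cnot1, Cnot2, Cnot3, Cnot6, Cnot7 and Cnot8. The genes were chosen on earlier results of these data, the known result being the THZ1 rise of Zfp36 in null cells. Every difference of Zfp36 that uses the null THZ1 libraries is therefore given as a description with no test. Of the 10 genes, all were measured and all passed the filter on low values (a mean of at least 1 FPKM, a fragment count corrected for transcript length and library depth), which 10731 genes passed in all.

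Poly(A)-selected RNA was sequenced from 2 mouse kidney epithelial cell lines, 1 heterozygous for Pkd1 (Pkd1+/-, line name pkd1(PH)) and 1 null for it (Pkd1-/-). Pkd1 encodes polycystin-1, a membrane protein of the tubule cell's primary cilium, and human mutations in the gene cause polycystic kidney disease. The lines were given either the solvent DMSO or 50 nM THZ1 for 6 h. THZ1 binds the transcription kinase CDK7 covalently and inhibits it. The 4 groups of line and drug hold 2 libraries apiece. All groups grew in serum-supplemented medium that also held insulin, transferrin, selenium, interferon-gamma and T3, so no group is free of interferon. Each genotype is represented by a single line, so loss of Pkd1 and any other difference between the lines cannot be told apart. The labels do not state whether libraries of a group are separate cultures, and the p-values below rest on a spread between samples that may be technical.

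An mRNA usually starts to decay when its poly(A) tail is shortened. The main deadenylase is the CCR4-NOT complex, built on the scaffold Cnot1, with a Cnot2 and Cnot3 module and catalytic subunits of the Cnot6 and Cnot7/Cnot8 types. Zfp36 (tristetraprolin), Zfp36l1 and Zfp36l2 are zinc-finger proteins that bind AU-rich elements in 3′ UTRs and bring CCR4-NOT to the mRNA. Elavl1 (HuR) binds overlapping U- and AU-rich sequences and is known for stabilising mRNAs. Many of the family's targets are short-lived mRNAs of cytokines and growth-response genes, and the Zfp36 family's own mRNAs carry AU-rich elements.

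The 3′ UTRs of the 3 family members were read from GENCODE M21 (GRCm38, the assembly that mm10 stands for), taking the protein-coding transcript with the longest 3′ UTR. The 7-base element TATTTAT, the preferred core of the family's binding site, occurred 3 times in each of them. The 25-base windows around these matches are shown 5′ to 3′ because elements of this kind are the known binding sites of the family, here in its own messages. All lie on the minus strand, and capitals mark TATTTAT.
Zfp36, chr7:28376968-28376992: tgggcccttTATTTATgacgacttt
Zfp36, chr7:28376953-28376977: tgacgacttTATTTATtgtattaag
Zfp36, chr7:28376928-28376952: attttatagTATTTATatatattgg
Zfp36l1, chr12:80108424-80108448: atcaaaacgTATTTATtgccaaact
Zfp36l1, chr12:80108383-80108407: ttttgttcaTATTTATcgggatgac
Zfp36l1, chr12:80108169-80108193: ctgttggatTATTTATtttagaaat
Zfp36l2, chr17:84184916-84184940: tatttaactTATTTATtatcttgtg
Zfp36l2, chr17:84184868-84184892: tccatactgTATTTATcgagtatga
Zfp36l2, chr17:84184682-84184706: tgtatgtaaTATTTATttcattaat

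The Zfp36 matches are clustered, at positions 575 to 621 of a 774-base 3′ UTR counted from its first base. Those of Zfp36l1 spread over positions 1150 to 1411 of 1835 bases, and those of Zfp36l2 over positions 822 to 1062 of 1822. Of the 10527 tested genes with a 3′ UTR, 30.8% held TATTTAT and 70.7% held the shorter ATTTA, searched on the transcript strand. Length matters for such counts: among the 1237 genes whose 3′ UTR was 80% to 120% as long as that of Zfp36, 20.5% held TATTTAT and 1.1% held it 3 or more times. The same share was 3.6% at the length of Zfp36l1 and 3.6% at that of Zfp36l2. Elavl1 held TATTTAT 8 times in 4218 bases, a count reached by 0.2% of genes of similar length. The deadenylase subunits held fewer matches: Cnot1 and Cnot2 none, Cnot3, Cnot7 and Cnot8 a single match each, and Cnot6 2 matches in 3690 bases. At least as many were held by 7.9% of genes of similar length for Cnot3, 24.5% for Cnot8, 27.0% for Cnot6 and 32.2% for Cnot7. The 3′ UTR of Cnot3 has only 283 bases. Per kb it held 3.53 matches, against 3.88 for Zfp36, 1.63 for Zfp36l1 and 1.65 for Zfp36l2. A match is a description of the letters, not evidence of binding.

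In the promoter table of RefSeq (GRCm38.p6), 7 of the 10 genes had an entry. The 250 bases before the start site are shown for the 2 family members found there, because Zfp36 had the largest THZ1 difference of the 10 genes. Capitals mark matches on either strand to the motifs searched. These were the TATA box letters TATAAA, the Sp1 letters GGGCGG, the CREB letters TGACG, the CArG box and the NF-kB motif. The AP-1-like letters TGANTCA, where N is any base, were marked too. The letters CCAAT of the CCAAT box were searched too and are not capitalised.
Zfp36, chr7:28379229-28379478, minus strand: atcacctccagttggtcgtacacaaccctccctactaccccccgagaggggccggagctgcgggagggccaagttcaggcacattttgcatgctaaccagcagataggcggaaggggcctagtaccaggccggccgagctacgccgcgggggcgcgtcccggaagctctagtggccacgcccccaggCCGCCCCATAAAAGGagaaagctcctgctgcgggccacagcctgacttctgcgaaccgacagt
Zfp36l1, chr12:80113014-80113263, minus strand: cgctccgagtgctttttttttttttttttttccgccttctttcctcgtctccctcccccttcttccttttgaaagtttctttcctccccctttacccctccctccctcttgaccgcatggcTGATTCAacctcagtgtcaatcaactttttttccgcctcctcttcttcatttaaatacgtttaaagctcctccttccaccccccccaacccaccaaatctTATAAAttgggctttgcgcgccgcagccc

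Counting from the start site as 0, Zfp36 held a CArG box, the letters bound by serum response factor, at -58 to -49, sharing 1 base with an Sp1 match (reverse strand) at -63 to -58. A CArG box was present in 1.2% of the 8689 promoters of tested genes in windows of the same length, and the Sp1 letters in 62.3%. Zfp36l1 held TATAAA at -29 to -24, present in 5.7% of promoters. It held the AP-1-like letters, with T as the middle base, at -129 to -123. With any middle base they were present in 3.9%. Its CCAAT box match on the reverse strand, at -24 to -20, shares 1 base with the TATA box match, and 37.6% of promoters held such a match. The CREB letters (28.6%) and the NF-kB motif (4.3%) did not occur in either window. None of these matches was tested for binding.

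Replicate libraries correlated at r = 0.9988 to 0.9992 across genes, and the steps between low FPKM values put the depth at about 17.4 to 18.3 M fragments per library. The labelled tissue was checked against 10 kidney tubule epithelium genes, of which 8 had a mean of at least 1 FPKM in every group. The general epithelial markers Cdh1 and Epcam did not, at no more than 0.42 and 0.24 FPKM in any library. The summed level of the 10 was 1104 to 1197 FPKM in heterozygous cells, 877 to 888 in null cells under DMSO and 799 to 803 in null cells under THZ1. Its members did not move alike: the mean of Krt8 was 326 FPKM in heterozygous and 185 in null cells under DMSO and that of Krt18 305 and 167, while that of Cdh16 was 182 and 264. Summed leukocyte markers reached 1.82 to 5.21 FPKM with Adgre1, Cd3e and Tyrobp at 0 in every library, and endothelial markers 0.09 to 0.23 FPKM. Summed fibroblast markers were 3.8 to 4.27 FPKM in heterozygous cells, 17.1 to 18.4 in null cells under DMSO and 24.6 to 24.9 in null cells under THZ1, with 1 of 8 genes at a mean of at least 1. That gene was Col1a1, with means of 16.5 and 23.9 FPKM in null cells under DMSO and THZ1. No other gene of the fibroblast list was above 0.87 FPKM in any library. The part of these cell types in the results was not tested, and in bulk RNA fewer cells of a type and less RNA per cell cannot be told apart. Differences below are limma differences of log2(FPKM + 1) with their SE, adjusted by Benjamini-Hochberg over the 10731 tested genes and called at an adjusted p below 0.05. On this scale the change of low genes is understated, and the folds given below are of FPKM + 1. FPKM is relative to the library's total, so higher, lower, rose and fell refer to relative levels. The amount of mRNA per cell was not measured.

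Among the family members, Zfp36l1 was the most abundant transcript per length and Zfp36 the least. Zfp36 (gene ID 22695, chr7:28376784-28379228) was listed at 4.05 and 5.17 FPKM in heterozygous cells under DMSO and at 6.69 and 6.77 under THZ1. In null cells it was listed at 8.31 and 6.47 under DMSO and at 24.5 and 21.8 under THZ1. The null THZ1 libraries stood apart from all the others, the heterozygous DMSO libraries were the lowest, and the heterozygous THZ1 values lay within the range of the null DMSO libraries. The means were 4.61 ± 0.792, 6.73 ± 0.0566, 7.39 ± 1.30 and 23.2 ± 1.87 FPKM in that order (SD, n = 2 each).

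Zfp36l1 (gene ID 12192, chr12:80107760-80113013) was listed at 52.5 and 57.2 FPKM in heterozygous cells under DMSO and at 54.2 and 58.1 under THZ1. In null cells it was listed at 67.4 and 64.2 under DMSO and at 92.1 and 85.1 under THZ1. The heterozygous groups overlapped, every null library was above them, and the null THZ1 libraries were the highest. Zfp36l2 (gene ID 12193, chr17:84183924-84187947) was listed at 28.1 and 28.9 FPKM in heterozygous cells under DMSO, 29.8 and 31.2 under THZ1, 27.2 and 27.5 in null cells under DMSO, and 48.3 and 43.6 in null cells under THZ1. For this gene the 6 libraries of the other groups spanned 27.2 to 31.2 FPKM and the null THZ1 libraries were above them all. At the mean over 8 libraries, 38.8% of tested genes were at or below Zfp36, 74.9% at or below Zfp36l2 and 88.6% at or below Zfp36l1.

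Elavl1 (gene ID 15568, chr8:4284781-4325140) was listed at 25.1 and 26.3 FPKM in heterozygous cells under DMSO and at 26.4 and 25.9 under THZ1. In null cells it was listed at 22.5 and 20.7 under DMSO and at 20.5 and 20 under THZ1. The null libraries were all below the heterozygous ones. The drug groups overlapped in the heterozygous line, and in the null line both THZ1 libraries lay just under the DMSO libraries.

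Cnot1 (gene ID 234594, chr8:95718931-95808113), the scaffold of the complex, was listed at 47.5 and 43.5 FPKM in heterozygous cells under DMSO, 40.5 and 38.9 under THZ1, 37.1 and 39.1 in null cells under DMSO, and 24.9 and 28.6 in null cells under THZ1. Only the heterozygous THZ1 and null DMSO libraries overlapped. Cnot2 (gene ID 72068, chr10:116485160-116581900), a subunit of the regulatory module, was listed at 40.7 and 38.8 FPKM in heterozygous cells under DMSO, 37.5 and 38.2 under THZ1, 31.9 and 29.7 in null cells under DMSO, and 31.6 and 32.5 in null cells under THZ1. Every heterozygous library was above every null library, and the drug groups of the null line overlapped. Cnot3 (gene ID 232791, chr7:3645247-3661109), the partner of Cnot2, was listed at 25.3 and 27.6 FPKM in heterozygous cells under DMSO, 25.6 and 25.5 under THZ1, 22.4 and 22.8 in null cells under DMSO, and 14.8 and 15.2 in null cells under THZ1. Its null THZ1 libraries were the lowest, well below both null DMSO libraries. Cnot3 shares 382 exonic bases with Leng1 on the opposite strand (mean 5.94 FPKM). How strand was handled is not given in the sources used here, so the Cnot3 values are uncertain to that extent.

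Cnot6 (gene ID 104625, chr11:49671497-49713401), a catalytic subunit of the Ccr4 type, was listed at 60.5 and 54.3 FPKM in heterozygous cells under DMSO, 53.8 and 52.6 under THZ1, 35.7 and 34.4 in null cells under DMSO, and 26.7 and 26.3 in null cells under THZ1. The lines did not overlap, and no other gene of the 10 differed as much between them under DMSO. Cnot7 (gene ID 18983, chr8:40492538-40515847), a catalytic subunit of the Caf1 type, was listed at 44.3 and 41.5 FPKM in heterozygous cells under DMSO, 46.0 and 42.8 under THZ1, 37.3 and 38.0 in null cells under DMSO, and 31.6 and 30.8 in null cells under THZ1. Cnot8 (gene ID 69125, chr11:58092794-58118597), the second Caf1-type subunit, was listed at 31.6 and 32.4 FPKM in heterozygous cells under DMSO, 32.4 and 34.6 under THZ1, 28.5 and 27.8 in null cells under DMSO, and 23.0 and 24.4 in null cells under THZ1. For both Caf1-type genes the lines did not overlap and the null THZ1 libraries were the lowest. The heterozygous drug groups overlapped for Cnot7 and met at 32.4 FPKM for Cnot8.

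**Figure D1:**
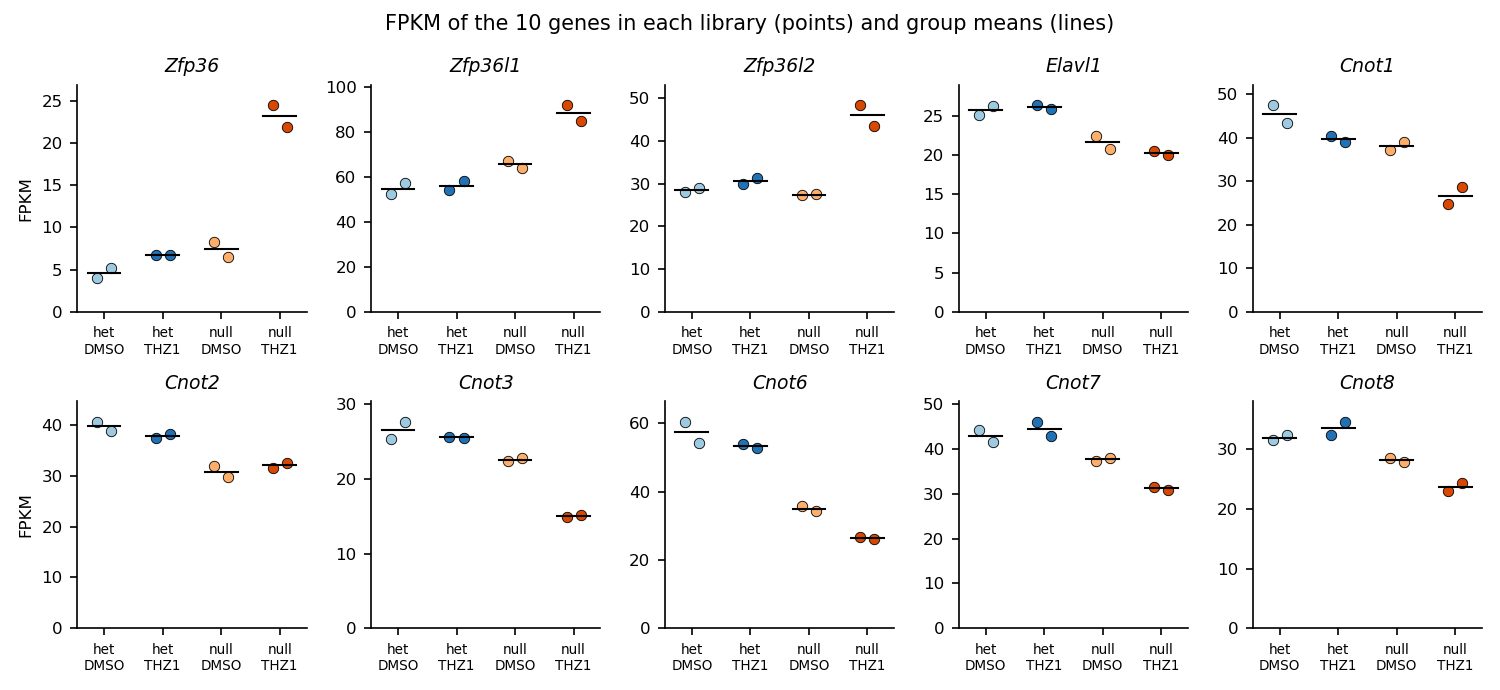
FPKM (linear axis from 0) of each of the 10 genes in the 8 libraries, by line (het, heterozygous; null) and treatment; points are libraries and lines are group means. Zfp36, Zfp36l1 and Zfp36l2 are highest in the null THZ1 libraries, at 21.8 to 24.5, 85.1 to 92.1 and 43.6 to 48.3 FPKM, while Cnot1, Cnot3, Cnot6, Cnot7 and Cnot8 are lowest there.

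The first comparison set the lines against each other under DMSO. Zfp36 was higher in null cells by 0.58 ± 0.11 on the log2 scale (limma adjusted p = 0.000429) and Zfp36l1 by 0.26 ± 0.06 (limma adjusted p = 0.00119). The THZ1 rise known for Zfp36 also used the null DMSO libraries, so the p-value and call of Zfp36 here are descriptive. All 6 CCR4-NOT subunits were lower in null cells. Cnot6 had the largest difference of the 6, at -0.70 ± 0.05 (limma adjusted p = 1.19e-07), followed by Cnot2 at -0.36 ± 0.05 (limma adjusted p = 3.12e-05). Elavl1 was lower by -0.24 ± 0.05 (limma adjusted p = 0.00152). Zfp36l2 was not called, with a difference of -0.06 and a 95% interval from -0.18 to 0.06.

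In all, 9 of the 10 genes were called, 2 higher and 7 lower, where 70.0% of all tested genes were called, 29.0% higher and 41.0% lower. With median-of-ratios scaling the all-gene split moved from 3110 higher and 4398 lower to 3717 and 3694. The median over the 10 genes was -0.20 and that over all tested genes -0.07. Only 8.4% of tested genes had a lower value than Cnot6. Cnot1 (-0.25), Cnot3 (-0.22), Cnot7 (-0.18) and Cnot8 (-0.18) were closer to the middle of the table, with 32.5% to 39.5% of tested genes below them. The calls of Cnot7 and Cnot8 were lost with a median-of-ratios scaling (limma adjusted p = 0.0804 and 0.0763) and with an upper-quartile scaling. Over all alternatives their limma adjusted p ranged from 0.00453 to 0.0804 for Cnot7 and from 0.00700 to 0.0763 for Cnot8. The call of Cnot7 was also lost without the first heterozygous DMSO library (-0.14, limma adjusted p = 0.0574), and that of Cnot1 with no filter on low values (limma adjusted p = 0.0661, range 0.00151 to 0.0661).

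In heterozygous cells under THZ1 Zfp36 was higher than under DMSO and the other 9 genes were not called. The difference of Zfp36 was 0.47 ± 0.11 (limma adjusted p = 0.0108), where 22.4% of tested genes were called, 12.2% higher and 10.3% lower. Scaled to equal library totals, the split of calls over all genes moved from 1306 higher and 1100 lower to 753 and 1491, and with the upper quartile to 1022 and 1314. The value of Zfp36 was above that of 99.6% of tested genes. The call did not hold without the first heterozygous DMSO library, which gave 0.33 and a limma adjusted p of 0.103, or without either heterozygous THZ1 library (limma adjusted p = 0.0540 and 0.0529). It was also lost with no filter on low values. Over all alternatives the limma adjusted p of Zfp36 ranged from 0.00774 to 0.155.

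Zfp36l1 differed by 0.03 in heterozygous cells (95% interval -0.09 to 0.16) and Zfp36l2 by 0.09 (-0.02 to 0.21). Among the deadenylase subunits, Cnot1 had a difference of -0.19 ± 0.07 that missed the threshold (limma adjusted p = 0.0537). It was called under 8 of its alternatives, with a limma adjusted p from 0.0273 to 0.305 over all of them. The intervals of Elavl1 (-0.09 to 0.14), Cnot2 (-0.17 to 0.04), Cnot3 (-0.16 to 0.07), Cnot6 (-0.22 to 0.01), Cnot7 (-0.06 to 0.16) and Cnot8 (-0.05 to 0.18) all included 0.

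In null cells under THZ1 the family members were higher and most deadenylase subunits lower than under DMSO. Zfp36 was 1.53 ± 0.11 higher on the log2 scale, 2.89-fold in FPKM + 1, given with no test, and 99.9% of tested genes lay below it. Zfp36l2 rose by 0.73 ± 0.05, 1.65-fold (limma adjusted p = 9.43e-08), and Zfp36l1 by 0.42 ± 0.06, 1.34-fold (limma adjusted p = 1.62e-05). Zfp36l2 lay above 98.8% and Zfp36l1 above 92.2% of tested genes.

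The scaffold Cnot1 fell by 0.50 ± 0.07 (limma adjusted p = 1.39e-05), Cnot3 fell by 0.56 ± 0.05 (limma adjusted p = 9.28e-07) and Cnot6 fell by 0.39 ± 0.05 (limma adjusted p = 2.05e-05). Cnot7 and Cnot8 had differences of -0.26 and -0.24 (limma adjusted p = 0.000397 and 0.000887). Cnot2, the partner of Cnot3, was not called, with a difference of 0.06 and a 95% interval from -0.05 to 0.17. Elavl1 had a difference of -0.09 and an interval from -0.21 to 0.03. Of the 9 genes tested here 7 were called, 2 higher and 5 lower, where 75.7% of all tested genes were called, 24.6% higher and 51.1% lower. The share of genes called is near the background, and the difference over all tested genes had a median of -0.17.

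**Figure D2:**
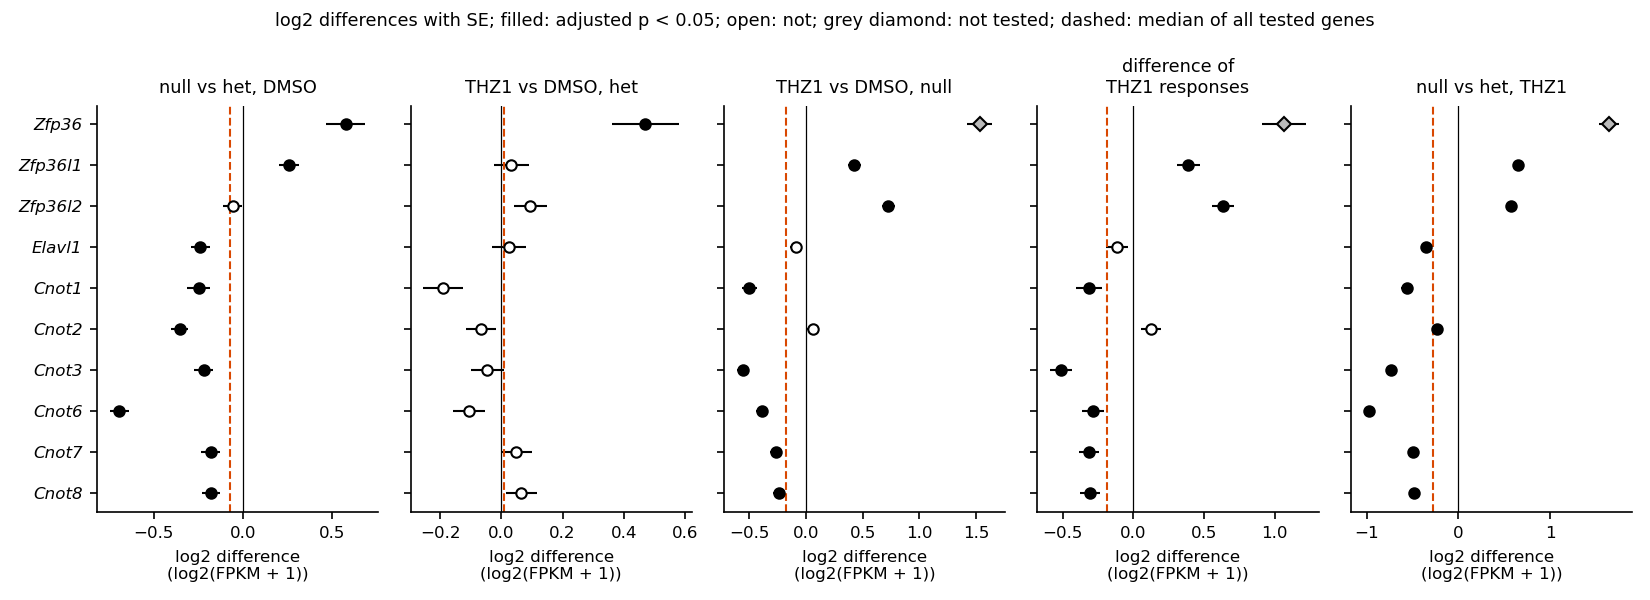
Differences of log2(FPKM + 1) with SE for the 10 genes in the 5 comparisons (each panel has its own axis range); filled points have a limma adjusted p below 0.05, open points do not, grey diamonds were not tested, and the dashed line is the median of all tested genes. Under THZ1 in null cells the 3 family members lie to the right of the median line (0.42 to 1.53) and Cnot1, Cnot3, Cnot6, Cnot7 and Cnot8 to its left (-0.56 to -0.24).

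The direction of small differences in null cells depended on how libraries were scaled. FPKM values were used as deposited. Scaling by the median of ratios moved the median of all genes in this comparison from -0.17 to 0.03, and turned the split of calls from 2645 higher and 5479 lower to 4363 higher and 3942 lower. Under that scaling Zfp36l1, Zfp36l2, Cnot1, Cnot3 and Cnot6 kept their direction and their calls. Cnot7 (-0.04, limma adjusted p = 0.490, range 4.00e-05 to 0.490 over its alternatives) and Cnot8 (-0.02, limma adjusted p = 0.724, range 8.08e-05 to 0.724) lost theirs. Cnot2 was then called higher (0.28, limma adjusted p = 0.000173, range 0.000173 to 0.906), as it also was with the upper quartile. Elavl1 turned from -0.09 to 0.13 (limma adjusted p = 0.0455, range 0.00975 to 1.00), and was called lower when libraries were scaled to the same total (-0.17). Relative to the median of all tested genes as deposited, Zfp36l2 was 0.90 higher, Zfp36l1 0.60 higher, Cnot2 0.23 higher, Elavl1 0.08 higher, Cnot7 and Cnot8 0.09 and 0.07 lower, Cnot6 0.22 lower, Cnot1 0.33 lower and Cnot3 0.38 lower.

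**Figure D3:**
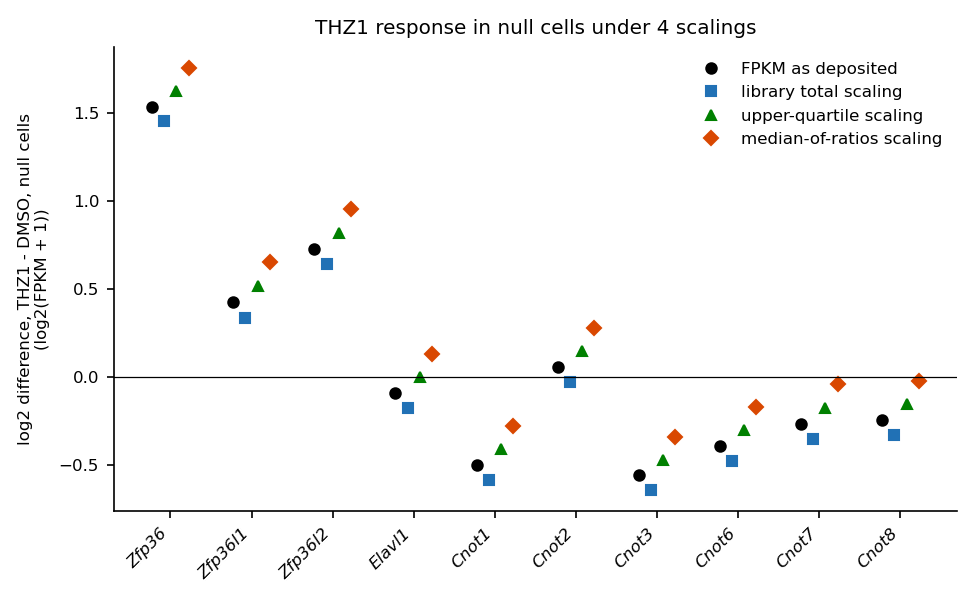
Difference of log2(FPKM + 1), THZ1 minus DMSO in null cells, for the 10 genes with FPKM as deposited and under 3 scalings of the libraries. The 3 family members stay above 0 and Cnot1, Cnot3 and Cnot6 below 0 under each of the 4, while Elavl1 and Cnot2 lie on either side of 0 depending on the scaling.

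The difference between the lines in their response to THZ1 was tested as an interaction. The response of Zfp36l2 was 0.63 ± 0.08 higher in null than in heterozygous cells (limma adjusted p = 2.21e-05) and that of Zfp36l1 0.39 ± 0.08 higher (limma adjusted p = 0.00105). Cnot3 (-0.51 ± 0.08, limma adjusted p = 0.000107), Cnot7 (-0.31), Cnot8 (-0.31), Cnot1 (-0.31) and Cnot6 (-0.29) had a lower response in null cells. Zfp36 differed by 1.06 ± 0.16, with no test. The intervals of Elavl1 (-0.28 to 0.05) and Cnot2 (-0.03 to 0.28) included 0. Of the 9 genes tested 7 were called, 2 higher and 5 lower, where 60.2% of all tested genes were called, 15.1% higher and 45.1% lower.

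With the median-of-ratios scaling 4 of these 9 genes were called for the interaction, namely Zfp36l1, Zfp36l2 and Cnot2 higher and Cnot3 lower, and the all-gene split moved from 1620 higher and 4843 lower to 3475 and 3126. Under that same median-of-ratios scaling Cnot1 (-0.08, limma adjusted p = 0.437), Cnot6 (-0.06, 0.546), Cnot7 (-0.08, 0.351) and Cnot8 (-0.08, 0.353) were no longer called, and each of these values is the largest p among that gene's alternatives. Their smallest values were 0.00179 for Cnot1, 0.00106 for Cnot6, 0.00129 for Cnot7 and 0.00154 for Cnot8. The interaction of Cnot1 was also lost without the first null THZ1 library (-0.21, limma adjusted p = 0.0533), with no filter on low values (limma adjusted p = 0.111) and with the upper quartile (-0.20, limma adjusted p = 0.0770). With the upper quartile Cnot6 was lost too (-0.17, limma adjusted p = 0.0720), Cnot7 and Cnot8 kept their calls, and the all-gene split was 2467 higher and 3937 lower.

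With both lines under THZ1, Zfp36l1 was 0.65 ± 0.06 higher and Zfp36l2 0.57 ± 0.05 higher in null cells (limma adjusted p = 1.82e-07 and 4.35e-07). Cnot6 had the lowest value of the 10 genes, -0.98 ± 0.05, or 0.507-fold (limma adjusted p = 1.98e-09). Cnot3 followed at -0.73, Cnot1 at -0.56, Cnot7 at -0.50, Cnot8 at -0.48, Elavl1 at -0.36 and Cnot2 at -0.23. Zfp36 was 1.64 ± 0.11 higher, 3.12-fold in FPKM + 1, with no test. All 9 genes tested were called, 2 higher and 7 lower, where 83.2% of all tested genes were called, 25.1% higher and 58.1% lower. This comparison shares its null THZ1 libraries with the drug comparison and with the interaction, so these are not separate lines of evidence. Under the median-of-ratios scaling Cnot2 turned to 0.07 (limma adjusted p = 0.183, range 0.000585 to 0.324) and Elavl1 lost its call (-0.06, limma adjusted p = 0.364, range 2.66e-05 to 0.364). The all-gene split there moved from 2689 higher and 6240 lower to 4347 and 4410, and with the upper quartile to 3592 and 5124.

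The summed FPKM of the 3 family members was 84.6 and 91.3 in heterozygous cells under DMSO, 90.7 and 96.1 under THZ1, 103 and 98.1 in null cells under DMSO, and 165 and 150.5 in null cells under THZ1. This sum depends on the scaling between libraries, while shares and ratios of genes within a library do not. Zfp36 made up 4.79% and 5.66% of that sum in heterozygous cells under DMSO, 7.38% and 7.05% under THZ1, 8.08% and 6.60% in null cells under DMSO, and 14.9% and 14.5% in null cells under THZ1. The share of Zfp36 was thus highest in the null THZ1 libraries, where Zfp36l1 still held 55.8% and 56.5% of the family's FPKM.

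Divided by the FPKM of Cnot1, the family sum was 1.78 and 2.10 in heterozygous cells under DMSO, 2.24 and 2.47 under THZ1, 2.77 and 2.51 in null cells under DMSO, and 6.63 and 5.26 in null cells under THZ1. The 4 groups did not overlap in this ratio. Divided by that of Elavl1 it was 3.38 and 3.47, 3.44 and 3.70, 4.57 and 4.73, and 8.05 and 7.53 in the same order, and the heterozygous groups overlapped. The ratio of Cnot2 to Cnot3 was 1.31 to 1.61 in the other 6 libraries and 2.13 and 2.14 in the null THZ1 libraries.

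The paralogous catalytic subunits differed in how their balance moved. Cnot6 made up 83.3% to 83.9% of the FPKM of Cnot6 and Cnot6l in the 4 heterozygous libraries, 78.4% and 77.5% in null cells under DMSO and 75.9% and 74.7% in null cells under THZ1. Cnot7 made up 55.3% to 58.7% of the FPKM of Cnot7 and Cnot8 over the 8 libraries, and the 4 groups overlapped. An exact permutation test of 2 libraries against 2 cannot reach a p below 0.05. No test of the ratios was run.

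**Figure D4:**
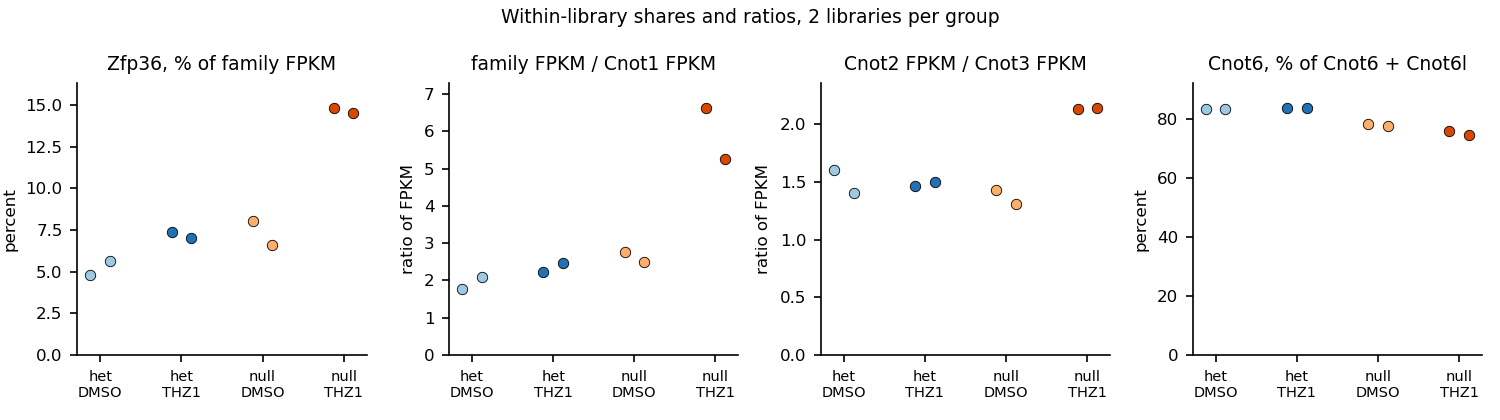
Shares and ratios of FPKM within each library (linear axes from 0), 2 libraries per group: the percent of family FPKM from Zfp36, the family sum over Cnot1, Cnot2 over Cnot3, and the percent of Cnot6 in Cnot6 plus Cnot6l. The null THZ1 libraries are the highest in the first 3 panels (14.5% to 14.9%, 5.26 to 6.63, 2.13 to 2.14) and the lowest in the fourth (74.7% to 75.9%).

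The family genes are compact. Each of the 3 has 2 exons in the transcript used, with a gene span of 2445 bp for Zfp36, 5254 bp for Zfp36l1 and 4024 bp for Zfp36l2, against 15863 bp (Cnot3) to 96741 bp (Cnot2) among the CCR4-NOT subunits and 40360 bp for Elavl1. The THZ1 difference in null cells was described by gene span. The 1488 tested genes of at most 6 kb had a median difference of -0.25, the 3285 genes of 6 to 20 kb -0.26, the 3078 genes of 20 to 50 kb -0.15 and the 2867 longer genes -0.09. Zfp36, Zfp36l1 and Zfp36l2 lay above the median of their own span class. In the longest class Cnot2 (0.06) lay above the median and Cnot1 (-0.50) below it, and Cnot3 (-0.56) lay below that of the 6 to 20 kb class.

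The genes whose pattern over the 8 libraries was most like that of Zfp36 were sought by the root mean square difference of centred log2(FPKM + 1) values. They were Junb, an AP-1 gene (0.170), Icam1, an adhesion molecule gene (0.182), and Dcdc2c (0.229). Junb was listed at 31 to 41.9 FPKM in heterozygous cells, 51.9 and 53.6 in null cells under DMSO, and 141 and 127 in null cells under THZ1. For Zfp36l1 they were Zmat3 (0.0392), Pdia3 (0.0394) and Amotl2 (0.0466), and for Zfp36l2 Higd2a (0.0561), Scamp1 (0.0586) and Hpcal1 (0.0587). The lists of the 3 family members had no gene in common. A low value is easier to reach for a gene that moves little, so the values are not comparable between the 3.

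The remaining machinery was described by lists of related genes, chosen with earlier results of these data known. The counts and adjusted p-values of these lists are therefore descriptive and give no separate support. Among the 11 other CCR4-NOT subunits and adaptors, 1 rose and 8 fell in null cells under THZ1, where 24.6% of all tested genes rose and 51.1% fell. The list median was -0.26 against -0.17 for all tested genes, and these all-gene values apply to the null THZ1 counts of each list that follows. Btg2, an antiproliferative adaptor that binds Cnot7 and Cnot8, fell by 2.16 ± 0.05 (limma adjusted p = 1.68e-11), from 58.4 and 57.6 FPKM to 11.8 and 12.7. Cnot9, a subunit with a peptide-binding surface, fell by 0.60 and Tnks1bp1 fell by 0.48, while Tob1, an adaptor of the same family as Btg2, rose by 0.51. With the median-of-ratios scaling 3 genes of this list were higher and 3 lower, where 4363 of 10731 tested genes were higher and 3942 lower. In heterozygous cells Tob1 rose by 0.37 and Btg2 fell by 0.38 (limma adjusted p = 0.000251 and 0.000406), and the other 9 genes were not called, where 12.2% of all tested genes rose and 10.3% fell. The response of Btg2 differed between the lines by -1.78 (limma adjusted p = 9.35e-09). Under DMSO, where 29.0% of all tested genes were higher and 41.0% lower in null cells, 4 of the 11 were higher, among them Btg3 (1.20), Tnks1bp1 (0.74) and Btg2 (0.24), and 5 were lower, among them Cnot9 (-0.79), Cnot11 (-0.59) and Btg1 (-0.40).

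Of 9 genes of the Pan2-Pan3 and Parn deadenylases and poly(A)-binding proteins, 5 rose and 3 fell in null cells under THZ1 (24.6% and 51.1% of all tested genes). With the median-of-ratios scaling 5 were higher and 2 lower, where 4363 of 10731 tested genes were higher and 3942 lower. Pan2, the catalytic subunit of the other cytoplasmic deadenylase, fell by 1.36 (limma adjusted p = 3.71e-09), and its partner Pan3 rose by 0.56. Parn, a poly(A)-specific ribonuclease, fell by 0.59. Paip2b and Paip2, which bind the poly(A)-binding protein, rose by 0.65 and 0.47. In heterozygous cells Pan2 fell by 0.44 (limma adjusted p = 0.00164). Paip2b rose there by 0.29, a call lost without the first heterozygous THZ1 library (limma adjusted p = 0.0509). Under DMSO Paip2 was 0.85 higher in null cells, and Paip2b and Parn differed by -0.65 and -0.50.

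Of the genes of decapping and 5′-to-3′ decay, 18 of 19 were tested. In null cells under THZ1 2 rose and 9 fell (24.6% and 51.1% of all tested genes), the latter including the 5′ exonuclease gene Xrn1 (-0.91), Edc3 (-0.60) and the helicase gene Ddx6 (-0.45). The 2 that rose were Lsm4 (0.31) and Lsm5 (0.26). With the median-of-ratios scaling the list split into 6 higher and 5 lower, where 4363 of 10731 tested genes were higher and 3942 lower. Over all tested genes 12.2% rose and 10.3% fell in heterozygous cells under THZ1. In heterozygous cells 3 rose (Lsm3, Lsm7 and Lsm14b) and 2 fell (Ddx6 and Patl1), and none of these 5 was called without the first heterozygous THZ1 library. Under DMSO none was higher and 12 were lower in null cells, with Lsm5 at -0.84, Lsm3 at -0.83 and Lsm4 at -0.75, and a list median of -0.28. Over all tested genes 29.0% were higher and 41.0% lower there, with a median of -0.07.

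The list of the RNA exosome, which degrades RNA from the 3′ end, and its cofactors had 16 genes tested. In null cells under THZ1 2 rose and 13 fell (24.6% and 51.1% of all tested genes), with a median of -0.61 against -0.17 for all tested genes. Cofactor genes went both ways. Means under DMSO and THZ1 were 17.5 and 19.6 FPKM for Skiv2l and 29.7 and 35.8 for Wdr61. They were 35.1 and 35.8 for Hbs1l and 8.7 and 6.5 for Ttc37. Exosc1 fell by 1.61 (limma adjusted p = 9.87e-11), from 25.9 and 25.5 FPKM to 7.96 and 7.55, Exosc10 fell by 0.94 and Exosc2 fell by 0.66. With the median-of-ratios scaling 3 were higher and 10 lower, with a median of -0.39. Most of this list thus stayed lower, where 4363 of 10731 tested genes were higher and 3942 lower, with a median of 0.03. In heterozygous cells 5 fell, where 10.3% of all tested genes fell and 12.2% rose. Among the 5 was Exosc10, with a difference of -0.33 (limma adjusted p = 0.00334). The calls of Dis3 (-0.33) and Ttc37 (-0.32) there, and that of Wdr61, the single gene that rose (0.14), were lost without the first heterozygous DMSO library or without either THZ1 library of that line. Under DMSO 1 was higher and 9 were lower in null cells (29.0% and 41.0% of all tested genes).

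Of 18 other RNA-binding factors of decay and stability, 14 were tested, and in null cells under THZ1 4 rose and 7 fell (24.6% and 51.1% of all tested genes). Hnrnpd, which encodes the AU-rich element binding protein AUF1, fell by 1.65 (limma adjusted p = 1.17e-10), from 23.3 and 23.5 FPKM to 6.63 and 6.96. It also fell in heterozygous cells, by 0.61 (limma adjusted p = 3.41e-05). Hnrnpd was the only gene of the list called there, where 22.4% of all tested genes were called. Igf2bp1 and Tia1 fell by 0.80 and 0.69 in null cells, and Ybx1 and Rc3h1 rose by 0.57 and 0.65. With the median-of-ratios scaling 6 were higher and 5 lower, where 4363 of 10731 tested genes were higher and 3942 lower. Under DMSO 2 genes of this list were higher and 6 lower in null cells (29.0% and 41.0% of all tested genes).

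Zfp36 proteins are inhibited by the p38 pathway through Mapkapk2 and 14-3-3 proteins, and reactivated by the phosphatase PP2A. Of 14 such genes, 4 rose and 5 fell in null cells under THZ1 (24.6% and 51.1% of all tested genes). With the median-of-ratios scaling 9 were higher and 5 lower, where 4363 of 10731 tested genes were higher and 3942 lower. Mapkapk2 rose by 0.62 (limma adjusted p = 6.29e-08) and Ywhaq and Ywhab, 14-3-3 genes, by 0.41 and 0.28. Dusp1, the gene of a phosphatase that turns off p38, fell by 1.08 (limma adjusted p = 5.90e-08), from 81.3 and 86.0 FPKM to 36.3 and 41.9, and Ywhag and Mapk11 fell by 0.63 and 0.64. Dusp1 also fell in heterozygous cells, by 0.51, and under DMSO it was 0.80 higher in null cells. In heterozygous cells Mapk14 (0.22) and Mapkapk2 (0.17) rose, calls that did not hold without the first THZ1 library of that line. These are RNA levels, and phosphorylation of the proteins was not measured.

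Of 24 AU-rich mRNAs known as targets of Zfp36 proteins, all held ATTTA in the 3′ UTR and 19 held TATTTAT. Of the tested genes with a 3′ UTR, 70.7% held ATTTA and 30.8% held TATTTAT. The list was chosen as AU-rich and 3′ UTR length was not matched, so these counts are no test. Of the 24 mRNAs, 17 were tested for differences in level. Under DMSO 11 were higher and 2 lower in null cells (29.0% and 41.0% of all tested genes), with a median of 0.39 against -0.07 for all tested genes. Vegfa was 1.69 higher, Ier3 1.28 and the cyclin gene Ccnd1 1.12, and Ccl2 differed by -1.20. In heterozygous cells under THZ1 8 fell, where 10.3% of all tested genes fell and 12.2% rose. Plk3 rose (0.30), a call lost without the first DMSO library or either THZ1 library of that line. The genes that fell included Ptgs2 (-0.62), Ccl2 (-0.51) and Lif (-0.50). In null cells 10 rose and 4 fell (24.6% and 51.1% of all tested genes), with a median of 0.19 against -0.17 for all tested genes. Fos rose by 2.03 (limma adjusted p = 6.87e-09), from 2.06 and 1.85 FPKM to 12.8 and 9.60, Cxcl1 by 0.90 and Ier3 by 0.65, and Cxcl10 and Plaur fell by 0.98 and 0.90. Under median-of-ratios scaling 12 of these targets were higher and 4 lower, where 4363 of 10731 tested genes were higher and 3942 lower. With libraries scaled to the same total 7 were higher and 4 lower, where 2047 of all tested genes were higher and 6129 lower. For the difference between the lines in the THZ1 response 9 were higher and 3 lower (15.1% and 45.1% of all tested genes). Among the cytokine mRNAs best known as Zfp36 targets, Tnf was listed at no more than 0.18 FPKM and Il6 at no more than 0.14 in any library, and neither was tested.

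**Figure D5:**
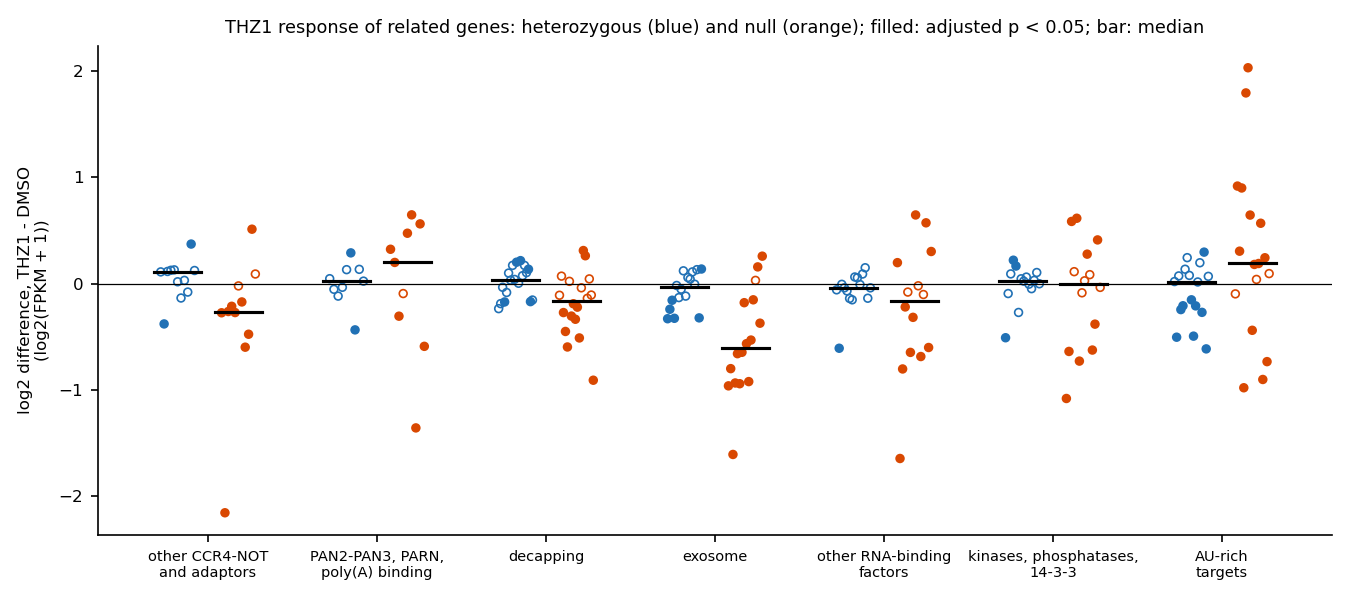
Difference of log2(FPKM + 1), THZ1 minus DMSO, of each tested gene in the 7 lists, in heterozygous (blue) and null (orange) cells; filled points have a limma adjusted p below 0.05 and bars are list medians. In null cells the genes of the exosome and its cofactors have a median of -0.61 with 13 of 16 called lower. The AU-rich targets have a median of 0.19 with 10 of 17 called higher. Of all tested genes, 51.1% were called lower and 24.6% higher. With median-of-ratios scaling 10 exosome or cofactor genes were lower, where 3942 of 10731 tested genes were lower. With library totals 7 targets were higher, where 2047 of all tested genes were higher.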

How the data were processed

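Poly(A) RNA of 8 libraries was analysed, 2 per group. Each deposited file gives FPKM per gene (to 2 decimals), computed by the authors. Per the submitters' processing notes, Bowtie2, DESeq2 and mm10 were used. Versions, the counting program, the annotation and the use of strand are not given in sources used here. Files list Entrez IDs, and 18592 of 18631 matched a RefSeq symbol (GRCm38.p6). Groups came from the labels.

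The files hold FPKM and not counts, so limma 3.58.1 (R 4.3.3) with a mean-variance trend was fitted to log2(FPKM + 1) of 10731 genes (mean FPKM 1 or more), with 4 group means, no further scaling and 4 residual degrees of freedom. Depth was estimated from the steps between low FPKM values, which gives no exact counts, so no count model was fitted. Named genes were all 10 members, and from each related list up to 3 called genes per direction with the smallest adjusted p. Not every list gene picked by this rule is named in each comparison. The values of 1 list gene are not reported here. The genes, lists and rules were chosen with earlier results of these data known, and the related lists are therefore a description. Alternatives were pseudocounts of 0.1 and 0.5, no filter or a mean FPKM of at least 5, 3 scalings of the libraries, limma without the trend, a replicate block, fits on the compared libraries alone and leaving out each library.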

Additional observations from a re-analysis of the deposited data

Results flagged for a closer look

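For 7 genes the response to THZ1 differed between the lines by the test of the interaction itself, as the limma difference (null minus heterozygous) of log2(FPKM + 1) responses. Zfp36l2 (0.632) and Zfp36l1 (0.39) had the higher response in null cells. Cnot3 (-0.511), Cnot7 (-0.313), Cnot1 (-0.31), Cnot8 (-0.307) and Cnot6 (-0.285) had the lower one. Over all tested genes 60.2% were called for this difference, so such a call is common in these data. The median of the difference over all tested genes was -0.19, and with the median-of-ratios scaling it was 0.02. Only Zfp36l1, Zfp36l2 and Cnot3 of these 7 were called under that scaling.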

How the results depend on the processing

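In heterozygous cells under THZ1, where 1 of the 10 genes was called, 2 were called with library total, median-of-ratios or upper-quartile scaling, with a mean FPKM of at least 5 and with the fit on that line's libraries alone. With no filter on low values 0 were called. Leaving out each library in turn gave 0 to 3 genes. For the difference between the lines in the THZ1 response 4 genes were called with median-of-ratios scaling, against 7 as deposited. That scaling reversed Elavl1 under THZ1 in null cells (0.13) and Cnot2 in null against heterozygous cells under THZ1 (0.072). The cause was not tested. The counts of genes called in the other 3 comparisons stayed within 1.5 times under every alternative run.

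Of the 50 values of the 10 genes in 5 comparisons, all kept direction and call with a pseudocount of 0.5, without the trend and with the replicate block. Deviations of same-numbered libraries from their group means correlated between groups at r = -0.094 to 0.139. This shows little shared replicate effect and cannot settle whether libraries were handled as pairs. With the replicate block 9, 1, 7, 7 and 9 genes were called, as without it, and 1 call among the named related genes, Wdr61 in heterozygous cells, was lost. With a pseudocount of 0.1 the untested differences of Zfp36 in null cells (1.64) and between lines under THZ1 (1.77) moved by more than the replicate spread. Leaving out single libraries left 385 values of the 10 genes unchanged, moved 6 untested values of Zfp36, gained 4 calls and lost 5. With 2 libraries a group, a gene that was not called may still differ by an amount within its printed interval.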
